A study of Mus musculus with 6 samples.

Results

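The genes described here are 7 with which lymphocytes read identity and stress on a neighbouring cell: Klrd1, Klrc1, Klrk1 and Klrg1, killer lectin-like receptors of natural killer (NK) cells; Cd226 and Cd96, receptors of the DNAM-1 family; and H60b, a stress-induced ligand of the receptor encoded by Klrk1. They are 7 of the 25759 genes in the deposited table. They were taken by name from a list chosen by their FPKM differences between the same groups, so those differences are given as a description, with no test. The samples were adaptive regulatory T cells (aTreg) of C57BL/6 mice aged 8 to 12 weeks. Lymph node and spleen cells were cultured for 3 days in 2 µg/ml concanavalin A with 3 ng/ml TGF-beta and 10 ng/ml IL-2, and CD4+Foxp3GFP+ cells were purified by flow cytometry. Of the 6 libraries, 3 came from normal B6 mice (wild type, WT) and 3 from BMPR/CD4cre mice, called deficient here; the series title names the receptor as BMPR1a, a receptor for bone morphogenetic proteins. Both groups carried the Foxp3GFP reporter transgene. A Cre driven by Cd4 also acts, as background, in the precursors of CD8 T cells. The labels do not say whether libraries came from separate animals or pools, so p-values measure the spread between these libraries alone, and that spread may be technical.

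CD94, the product of Klrd1, reaches the cell surface with a partner of the NKG2 group. With NKG2A, the product of Klrc1, it forms an inhibitory receptor that in the mouse binds Qa-1, the product of H2-T23. NKG2D, the product of Klrk1, is an activating receptor whose ligands H60, RAE-1 and MULT1 appear on stressed or transformed cells, and it signals through the adapter DAP10, encoded by Hcst. CD226 and CD96 both bind CD155, the product of Pvr, and CD226 is costimulatory in T cells. KLRG1 is an inhibitory receptor for cadherins found on differentiated effector cells and on a subset of regulatory T cells.

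The sequences bear on how far each value can be trusted, since short reads from near-identical genes cannot be placed with certainty. In 1 transcript of each gene from the GENCODE annotation of GRCm38, 0% of the 50-base words of Klrd1, Klrk1, Klrg1 and Cd96 also occurred in a transcript of another gene. For H60b the share was 0.679%, 7 of 1031 words, all in Raet1e, and for Cd226 it was 1 word of 4445. For Klrc1 it was 40.3%, mostly words shared with Klrc2. The 90 coding bases of Klrc1 from position 339 show this, with the best ungapped match in Klrc2 and Klrc3, 5′ to 3′, where capitals mark bases that differ from Klrc1.
Klrc1: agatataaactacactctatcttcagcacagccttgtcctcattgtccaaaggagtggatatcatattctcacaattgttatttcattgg
Klrc2: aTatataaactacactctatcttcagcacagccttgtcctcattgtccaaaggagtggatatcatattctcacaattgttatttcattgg
Klrc3: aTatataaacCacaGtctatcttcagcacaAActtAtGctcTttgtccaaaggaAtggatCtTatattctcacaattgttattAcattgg
Klrc2 differs at 1 of the 90 bases and Klrc3 at 12, so how reads were divided between these genes is uncertain. The first 90 coding bases of H60b and of Klrd1 are shown because these genes separated the groups.
H60b: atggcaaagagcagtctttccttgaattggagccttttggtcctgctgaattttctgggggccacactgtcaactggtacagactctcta
Klrd1: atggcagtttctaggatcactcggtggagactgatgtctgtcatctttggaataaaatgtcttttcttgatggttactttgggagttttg
The best ungapped placement of the H60b stretch matched 38 of 90 bases in H60c and 47 in Raet1e, and that of the Klrd1 stretch 46 in Klrc1 and 40 in Klrk1.

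The values are FPKM, fragments scaled by transcript length and by sequencing depth, so levels can be compared between genes per length. The table gives no counts, and the step size of its low values put the libraries at about 3.08e+07 to 3.86e+07 fragments. Deficient replicate 1 stood apart: its 13 mitochondrial mRNAs summed to 5335 FPKM, against 44657 and 44713 in the other deficient libraries and 50442 to 53789 in WT. Bmpr1a, the targeted gene, was at 1.39, 2.34 and 1.31 FPKM in WT and at 0.439, 0.720 and 0.691 in deficient aTreg, with every deficient library below every WT library, and did not pass the threshold (limma adjusted p = 0.183). Cd4 was at 329 to 359 FPKM in WT and 349 to 436 in deficient aTreg, and Foxp3 at 49.4 to 62.3 and 51.3 to 96.9.

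Of 13413 genes with a mean of at least 1 FPKM, tested with limma on log2(FPKM + 1), 1.07% passed an adjusted p of 0.05, 0.746% higher and 0.321% lower in deficient aTreg, and at an unadjusted p under 0.05 the shares were 9.29% higher and 5.87% lower. The groups did not overlap in 26.3% of them, 15.9% higher and 10.4% lower. Of the 7 genes described, 5 passed this filter on low values, H60b through its level in deficient aTreg alone, since its WT mean was below 1. H60b lay higher in deficient aTreg without overlap, Klrd1 lower without overlap, and the other 5 genes overlapped. Because the differences were known when the genes were chosen, nothing is read from these counts.

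Klrd1 was abundant and lower in deficient aTreg. It was at 114, 77.2 and 63.3 FPKM in WT and at 12.3, 20.9 and 36.9 in deficient replicates 1 to 3. The groups did not overlap: the highest deficient library lay below the lowest WT library by a factor of 1.71. Means were 84.8 ± 26.2 and 23.4 ± 12.5 FPKM (SD, n = 3 each), so deficient aTreg held 27.6% of the WT level, or 34.1% without deficient replicate 1. On the log2(FPKM + 1) scale, which understates changes of low genes, the difference was -1.90 (SE 0.416), and -1.53 without that library. Klrd1 also varied widely within each group, with a residual SD at the 93.3 percentile of all tested genes. By mean FPKM it stood at the 94.4 percentile of the table in WT and at the 81.7 percentile in deficient aTreg. In RNA from a pool of cells, fewer cells with a transcript and less of it per cell cannot be told apart, and this holds for each gene below.

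**Figure D1:**
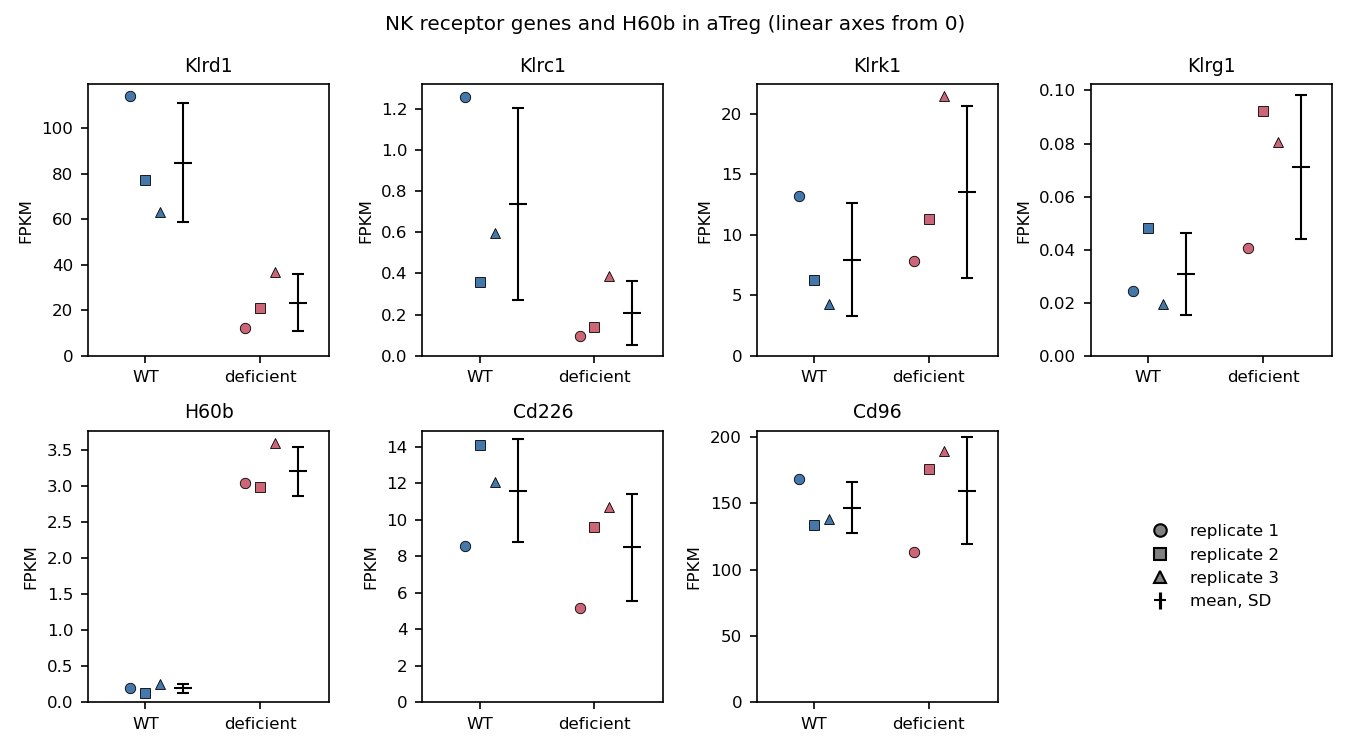
FPKM of each gene (linear axes from 0) in the 3 WT and 3 deficient libraries, with a symbol per replicate number and the mean and SD at the right of each group. The groups separate for Klrd1 (63.3 to 114 against 12.3 to 36.9) and H60b (0.133 to 0.251 against 2.99 to 3.60) and overlap for the other 5 genes.

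The partners that CD94 needs were near the lower limit of the data. Klrc1 was at 1.26, 0.359 and 0.596 FPKM in WT and at 0.0975, 0.140 and 0.387 in deficient aTreg, roughly 23 to 77 fragments in a WT library and 7 to 28 in a deficient one. Deficient replicate 3 lay within the WT range, so the groups overlapped, and the gene fell below the filter. Deficient aTreg held 28.2% of the WT mean, or 35.7% without deficient replicate 1. Klrc2, which encodes the activating partner NKG2C, was at 0.0653 to 0.242 FPKM in WT and 0 to 0.145 in deficient aTreg, and Klrc3, which encodes NKG2E, at 0 to 0.0565 and 0.0462 to 0.116. Per length, Klrd1 exceeded the sum of Klrc1, Klrc2 and Klrc3 by a factor of 73.3 to 155 in WT libraries and 63.9 to 83.5 in deficient ones, and these ranges overlapped. The ratio of Klrd1 to Klrc1 overlapped too, at 137 ± 67.7 in WT and 124 ± 26.9 in deficient aTreg (SD, n = 3).

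Klrk1, close to Klrd1 on the chromosome, kept the order of Klrd1 among the libraries of each group but did not share its lower level in deficient aTreg. It was at 13.2, 6.30 and 4.33 FPKM in WT and at 7.80, 11.3 and 21.5 in deficient aTreg. WT replicate 1 lay above deficient replicates 1 and 2, so the groups overlapped. Means were 7.96 ± 4.69 and 13.5 ± 7.12 FPKM, a ratio of deficient to WT of 1.70, or 2.06 without deficient replicate 1. The log2 difference was 0.71 (SE 0.476), and the residual SD was at the 94.4 percentile, so Klrk1 too varied more within groups than most genes.

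The ratios between genes given in these results were all chosen after the values were seen. Klrd1 over Klrk1 within a library was 8.60, 12.3 and 14.6 in WT and 1.57, 1.85 and 1.72 in deficient aTreg. The deficient libraries lay close together in this ratio although Klrd1 itself spanned 3.01-fold among them and Klrk1 2.76-fold. Klrd1 over Cd8a, a subunit gene of the CD8 coreceptor, was 9.75, 8.08 and 7.20 in WT and 0.890, 1.22 and 1.27 in deficient aTreg. These groups had to separate, since Klrd1 lay lower and Cd8a higher in deficient aTreg, each without overlap. Klrk1 over Cd8a was 1.13, 0.659 and 0.492 in WT and 0.566, 0.660 and 0.739 in deficient aTreg, and those groups overlapped. Cd8a itself was at 11.7, 9.56 and 8.80 FPKM in WT and at 13.8, 17.2 and 29.1 in deficient aTreg, without overlap. It did not pass the threshold (limma adjusted p = 0.236). Cd8b1, the other CD8 marker gene, was at 30.1, 23.1 and 23.2 FPKM in WT and at 24.1, 26.9 and 39.3 in deficient aTreg. Its groups overlapped (limma adjusted p = 0.634).

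**Figure D2:**
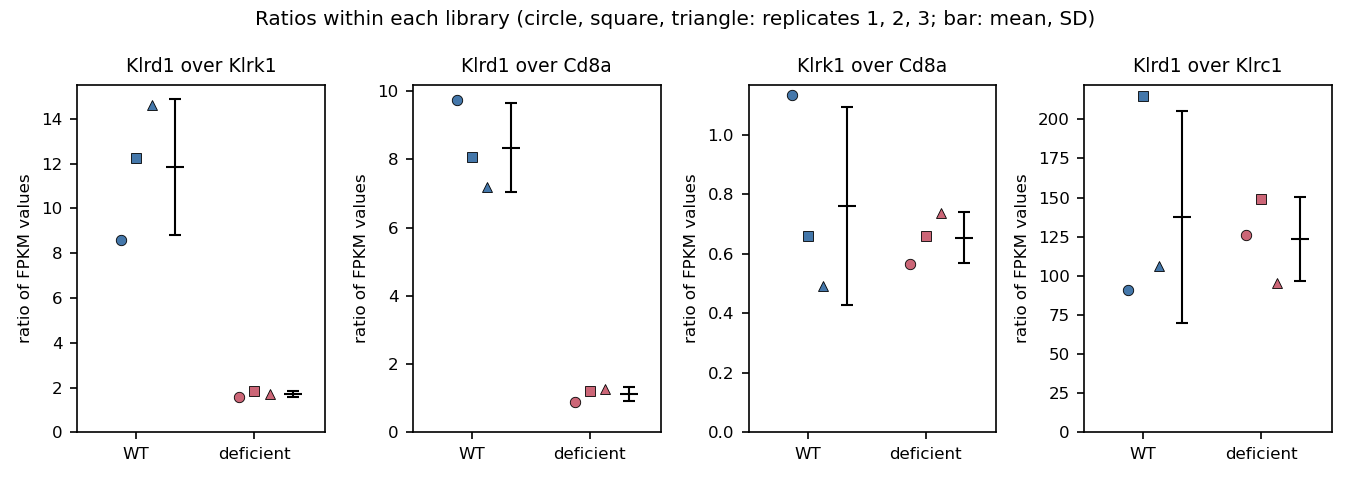
Ratios of FPKM values within each library (linear axes from 0), with the mean and SD beside each group of 3. Klrd1 over Klrk1 lies at 8.60 to 14.6 in WT and 1.57 to 1.85 in deficient libraries, whereas Klrk1 over Cd8a and Klrd1 over Klrc1 overlap between the groups.

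Around these receptor genes on chromosome 6 few neighbours were expressed. Klrd1 (129591782 to 129598775, plus strand, GRCm38), Klrk1 (129610323 to 129623864, minus) and Klrc1 (129666015 to 129678973, minus) lie close together, while Klrg1 (122270596 to 122282882, minus) lies apart on the same chromosome. Within 250 kb of the Klrd1 to Klrc1 interval the table listed 17 other genes, of which 3 passed the filter and 0 passed the threshold with limma, with 0 at an unadjusted p under 0.05. Of the 15 above 0 in at least 1 library, 1 lay higher and 2 lower in deficient aTreg without overlap, together 20%, near the 21.2% of all genes above 0 in at least 1 library.

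Klrg1 was barely detected. It was at 0.0245, 0.0483 and 0.0195 FPKM in WT and at 0.0407, 0.0922 and 0.0804 in deficient aTreg, and the groups overlapped. At the estimated depths these values stand for about 1.1 to 2.2 fragments in a WT library and 2.1 to 4.2 in a deficient one, so no difference was detectable at this depth. Among its ligand genes, Cdh1, which encodes E-cadherin, was at 0.946, 0.459 and 0.279 FPKM in WT and rose to 4.77, 5.46 and 5.09, with a log2 difference of 1.99 (SE 0.182, limma adjusted p = 0.0163). All 3 deficient libraries lay above all WT libraries. Cdh1 passed in 2 of the 6 fits with a library removed, those without WT replicate 1 and without deficient replicate 1 (limma adjusted p = 0.0164 and 0.0349). It did not pass without WT replicate 2 or 3 or deficient replicate 2 or 3 (0.0908, 0.0692, 0.0563 and 0.0730). Cdh2, which encodes N-cadherin, was at 0 in each WT library and at 0 to 0.0138 FPKM in deficient ones.

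H60b separated the groups by the widest fold of the 7 genes. It was at 0.201, 0.133 and 0.251 FPKM in WT and at 3.04, 2.99 and 3.60 in deficient aTreg. All deficient libraries lay above all WT libraries, the lowest 11.9-fold above the highest WT value. Means were 0.195 ± 0.0590 and 3.21 ± 0.337 FPKM (SD, n = 3), a ratio of deficient to WT of 16.4, or 16.9 without deficient replicate 1. The WT values stand for about 4.6 to 10.5 fragments a library, against about 104 to 143 in deficient libraries, so the WT level is the less precise side of that ratio. The log2(FPKM + 1) difference was 1.81 (SE 0.132), and the residual SD was at the 11.6 percentile of tested genes, far below Klrd1 and Klrk1. That scale flattens values below 1, so the WT libraries could add little to this SD. In FPKM the highest WT library exceeded the lowest 1.88-fold for H60b, 1.80-fold for Klrd1 and 3.06-fold for Klrk1. Among deficient libraries these folds were 1.20, 3.01 and 2.76. By mean FPKM it stood at the 37.3 percentile in WT and the 57.5 percentile in deficient aTreg. These percentiles are over all 25759 genes, of which 13413 reached a mean of 1 FPKM, so that of WT stands for a level near the lower limit of the data.

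The other ligands of NKG2D in the table had no such gap, but all except Ulbp1 were near the lower limit of the data. Of the 8 on the list, 4 were in the table and 1 passed the filter. This was Ulbp1, which encodes MULT1, at 5.87, 6.61 and 5.50 FPKM in WT and 7.73, 8.13 and 7.12 in deficient aTreg (log2 difference 0.31, SE 0.104, limma adjusted p = 0.258). The groups of Ulbp1 did not overlap, but it did not pass the threshold. H60c was at 0.0724, 0.0857 and 0.1001 FPKM in WT and 0.0870, 0.227 and 0.348 in deficient aTreg, overlapping. Raet1d and Raet1e are RAE-1 genes that share 56.4% and 44.4% of their 50-base words with other genes. They were at 0.0822 to 0.0881 and 0.0157 to 0.140 FPKM in WT and 0 to 0.0400 and 0 to 0.107 in deficient aTreg. Raet1d lay lower in deficient aTreg without overlap, and Raet1e overlapped. At the estimated depths H60c stood for about 6.3 to 10.9 fragments in a WT library and 8.9 to 36 in a deficient one. For Raet1d these were 3.7 to 4.9 and 0 to 2.1, and for Raet1e 1 to 7 and 0 to 6.2. H60b over Ulbp1 was 0.0334 ± 0.0127 in WT and 0.422 ± 0.0733 in deficient aTreg. These groups had to separate, since H60b differed far more between the libraries than Ulbp1, so the ratio restates the values of H60b.

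H60b (chromosome 10, 22158586 to 22288849, plus strand, GRCm38) lies inside the annotated span of Raet1e, and genes near it also differed. The labels give C57BL/6 for both groups, and whether the groups carry the same alleles in this region was not tested. Within 250 kb the table listed 20 other genes, all above 0 in at least 1 library. In 5 of these every deficient library lay above every WT library and in 8 below, together 65%. Of all 24025 genes above 0 in at least 1 library, 21.2% did not overlap, 13.1% higher and 8.12% lower. Of the 7 neighbours that passed the filter, 2 rose past the threshold and 0 fell. Gm2539, 1 of these, passed the filter through its level in deficient aTreg alone, so this count is not set against that of all genes. C920009B18Rik, a transcribed pseudogene none of whose 50-base words occurred in another gene, was at 7.81, 9.76 and 12.4 FPKM in WT and rose to 51.0, 126 and 99.7 (log2 difference 3.01, SE 0.355, limma adjusted p = 0.0263). Gm2539, another transcribed pseudogene, was at 0.749, 0.325 and 0.423 FPKM and rose to 3.18, 3.24 and 3.16 (log2 difference 1.49, SE 0.148, limma adjusted p = 0.0172). C920009B18Rik passed in 1 of the 6 fits with a library removed, that without deficient replicate 1 (limma adjusted p = 0.0163, and 0.0747 to 0.141 in the others). Gm2539 passed in 2, those without WT replicate 1 and deficient replicate 1 (0.0252 and 0.0355, and 0.0616 to 0.0972 in the others).

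The neighbours did not all lie on one side. Gm19791 was listed at 0 in every WT library and reached 1.34, 1.23 and 1.52 FPKM in deficient aTreg, and Gm7678 was at 0, 0.0395 and 0 FPKM in WT and 1.20, 0.558 and 0.744 in deficient aTreg. Hmgb1-ps8 lay the other way, at 23.7, 28.7 and 41.4 FPKM in WT and 1.21, 9.67 and 7.65 in deficient aTreg, without passing the threshold (limma adjusted p = 0.158). Gm26740, an antisense gene that overlaps H60b on the other strand, was at 20.2, 24.1 and 29.0 FPKM in WT and 15.2, 15.8 and 16.5 in deficient aTreg (limma adjusted p = 0.149). Gm2539, Gm19791 and Hmgb1-ps8 share 5.59%, 36.0% and 21.8% of their words with other genes. Among the 8 lower neighbours, Gm26581 and Gm10825 each share 85.6%, with 3791 words in common, so they are hardly separate measurements, and Gm4895 shares 65.4% and Raet1d 56.4%. In addition, the strand setting of the authors' counting is not stated, so values of overlapping genes here are uncertain. These neighbours were singled out after their values were seen.

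Cd96 was the most abundant of the receptors and Cd226 lay well below it. Cd96 was at 169, 134 and 138 FPKM in WT and at 114, 176 and 189.7 in deficient aTreg, and the groups overlapped. Its means were 147 ± 18.9 and 159.7 ± 40.6 (log2 difference 0.09, SE 0.224), a ratio of deficient to WT of 1.09, or 1.24 without deficient replicate 1. Cd226 was at 8.59, 14.1 and 12.1 FPKM in WT and at 5.15, 9.62 and 10.7 in deficient aTreg, also overlapping. Deficient aTreg held 73.2% of its WT mean (log2 difference -0.44, SE 0.293), or 87.6% without deficient replicate 1, its lowest library. Per length, Cd96 exceeded Cd226 by a factor of 9.48 to 19.6 in WT and 17.7 to 22.0 in deficient libraries.

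In the order of mean levels in WT, Cd96 came first, followed by Klrd1, Cd226, Klrk1, Klrc1, H60b and Klrg1. The WT ranges of Cd226 and Klrk1 overlapped, and those of the other neighbours in that order did not. In deficient aTreg the order was Cd96, Klrd1, Klrk1, Cd226, H60b, Klrc1 and Klrg1. There the range of Klrk1 overlapped with that of Klrd1 and with that of Cd226, and the other neighbours in the order did not overlap.

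The ligand gene shared by Cd226 and Cd96, Pvr, was at 15.5, 15.8 and 16.2 FPKM in WT and at 9.17, 13.7 and 12.6 in deficient aTreg. The groups did not overlap, but Pvr did not pass the threshold (log2 difference -0.41, SE 0.152, limma adjusted p = 0.300). Nectin2, another CD226 ligand gene, was at 0.432 to 0.744 and 0.572 to 1.28 FPKM. Tigit, an inhibitory receptor that competes for the same ligands, was at 9.13, 8.73 and 9.83 FPKM in WT and 3.34, 10.3 and 9.71 in deficient aTreg. Its log2 difference of -0.34 turned to 0.11 without deficient replicate 1, and neither passed (limma adjusted p = 0.672 and 0.495). Of the 3 tested genes on the ligand and integrin list limma called 0, with 0 higher and 1 lower at an unadjusted p under 0.05 (9.29% and 5.87% of all genes), and the best expressed were Itgb2 at 215 ± 16.4 and 230.0 ± 17.3 FPKM and Itgal at 114 ± 1.95 and 126 ± 3.25.

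Genes for the other partners were mostly expressed and did not pass the threshold. H2-T23 was at 319, 283 and 302 FPKM in WT and 242, 292 and 282 in deficient aTreg, overlapping (limma adjusted p = 0.574). Hcst was at 55.7, 58.4 and 66.7 FPKM in WT and 32.7, 51.6 and 38.3 in deficient aTreg, without overlap (log2 difference -0.57, SE 0.184, limma adjusted p = 0.247). Tyrobp, which encodes the adapter DAP12, was at 13.2, 3.62 and 7.46 FPKM in WT and 0.927, 7.12 and 12.0 in deficient aTreg, overlapping. Of 24 tested adapter and signalling genes limma called 0, with 2 higher and 4 lower at an unadjusted p under 0.05, against 9.29% and 5.87% of all genes. By the mean over all 6 libraries the best expressed were Lck, a kinase of T cell receptor signalling, at 403 ± 15.1 and 500.4 ± 126 FPKM, and Ptpn6, which encodes the phosphatase SHP-1, at 253 ± 14.8 and 335 ± 70.7. Both were highest in deficient replicate 1, Lck at 645 FPKM against 439 and 417 in deficient replicates 2 and 3, and Ptpn6 at 417 against 288 and 301. Across all 7 lists of receptors, ligands, partners and transcription factors, 95 of 104 genes were in the table, 59 were tested, 1 rose (Cdh1) and 0 fell, which is 1.69% against 1.07% of all genes. Cdh1, with a WT mean below 1 FPKM, passed the filter through its level in deficient aTreg alone, so nothing is read from that share. The median log2 difference of the 59 was -0.05, against 0.04 over all genes tested.

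Of the other killer lectin-like receptor genes, 22 of 23 were in the table and all 22 were below a mean of 1 FPKM, with 2 (Klri1 and Klra10) at 0 in every library. Klrb1c, which encodes the NK1.1 antigen of C57BL/6 mice, was at 0.126, 0.0727 and 0.0692 FPKM in WT and at 0.598, 0.760 and 0.648 in deficient aTreg. Klrb1a, singled out after its values were seen, was at 0.0375, 0 and 0 FPKM in WT and 0.408, 0.503 and 0.611 in deficient aTreg. In both, all deficient libraries lay above all WT libraries. Both passed when genes were tested without a filter (limma adjusted p = 0.0211 and 0.0329), as did Cd244a, a receptor for CD48 that was also singled out afterwards, at 0.0458 ± 0.00697 and 0.202 ± 0.0344 FPKM (0.0458). The Klrb1 genes are a family of paralogs, so the division of reads among them is uncertain. Klrb1f, which with Klrb1c had the highest mean of this list over all 6 libraries, was at 0.350 to 0.551 and 0.132 to 0.455 FPKM.

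Of 12 tested other receptors of NK and cytotoxic cells limma called 0, with 1 higher and 3 lower at an unadjusted p under 0.05, against the same 9.29% and 5.87%. Cd160, a receptor of cytotoxic lymphocytes that binds HVEM, was at 25.9, 19.0 and 21.6 FPKM in WT and 35.3, 47.8 and 42.8 in deficient aTreg, without overlap (log2 difference 0.89, SE 0.163, limma adjusted p = 0.0778), and was singled out after its values were seen. The highest means over all 6 libraries were those of Cd48, at 99.1 to 102 and 27.3 to 86.8 FPKM, and Ly9, at 44.1 to 56.8 and 36.5 to 39.6. Of 11 tested transcription factors of NK and cytotoxic cells limma called 0, with 1 higher and 1 lower at an unadjusted p under 0.05, again against 9.29% and 5.87%. Tbx21, which encodes T-bet, was at 9.28 ± 1.91 and 12.5 ± 1.42 FPKM and Eomes at 6.93 ± 2.03 and 4.92 ± 2.57 (limma adjusted p = 0.334 and 0.546). Tbx21 lay higher in deficient aTreg without overlap, at 7.14 to 10.8 and 11.3 to 14.1 FPKM, and Eomes overlapped. Tcf7 and Ets1, the most abundant of that list, were at 532 ± 45.6 and 302 ± 114 and at 326 ± 5.25 and 278 ± 31.2 FPKM. Both lay lower in deficient aTreg without overlap, and Tcf7 was at 170 FPKM in deficient replicate 1 against 374 and 361 in the others.

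Markers of other cells were present to varying degrees. Ncr1, a defining receptor gene of NK cells, was at 0 in 5 of 6 libraries and at 0.0222 FPKM in deficient replicate 2. On the same list Klrb1c lay higher and Klre1 lower in deficient aTreg, each without overlap, and the other markers overlapped. Klrb1c stood for about 6 to 10.2 fragments in a WT library and 57 to 65 in a deficient one. For Klre1 these were 4 to 6 and 0 to 3.9. Of the 10 NK cell and ILC1 markers, 8 were below a mean of 1 FPKM, and the summed level, mostly Tyrobp and Eomes, was 19.5, 11.1 and 17.5 in WT and 4.15, 15.9 and 18.2 in deficient aTreg. The 2 CD8 markers summed to 41.8, 32.7 and 32.0 FPKM in WT and 37.9, 44.0 and 68.4 in deficient aTreg, and were highest in deficient replicate 3, where 6 of the 7 genes, all but Klrg1, were also highest within that group. The 10 myeloid and dendritic cell markers, 5 of them below a mean of 1 FPKM, summed to 107, 22.5 and 44.2 FPKM in WT and 12.9, 45.4 and 91.9 in deficient aTreg. Tyrobp, a large part of the NK sum, kept the order of this myeloid sum among the libraries of each group. Which cells its transcript came from was not tested. WT replicate 1 held the highest WT values of the myeloid, CD8 and NK sums alike, and of Klrd1, Klrk1 and Klrc1. For each of these, deficient replicates 1 and 3 held the lowest and the highest value of their group.

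Among the remaining marker lists, that of gamma delta T and NKT cells had 6 of 7 in the table, 5 of these below a mean of 1 FPKM. It summed to 2.07, 3.02 and 3.16 FPKM in WT and 4.53, 5.96 and 5.89 in deficient aTreg, without overlap. Blk made up most of this sum in every library. Blk, Sox13 and Tcrg-C2 lay higher in deficient aTreg, each without overlap. Their means were 2.07, 0.0226 and 0.207 FPKM in WT and 3.42, 0.343 and 0.807 in deficient aTreg. Blk did not pass the threshold (limma adjusted p = 0.325), nor did Sox13 and Tcrg-C2 when tested without a filter (0.069 and 0.144). Tcrg-C1, Tcrg-C4 and Zbtb16 overlapped, Zbtb16 at 0.00490 to 0.00618 FPKM in WT and 0 to 0.0116 in deficient aTreg. B cell markers, 1 of 6 below a mean of 1 FPKM, summed to 25.7, 39.1 and 51.1 FPKM in WT and 36.2, 50.4 and 45.9 in deficient aTreg. Those of mast cells and basophils, 3 of 4 below that mean, summed to 2.09, 2.16 and 3.02 FPKM in WT and 1.11, 5.06 and 3.29 in deficient aTreg. The part of these cells in the levels of Klrd1, Klrk1 and the other genes was not tested. Deficient replicate 3 had 91.9 FPKM of myeloid and 68.4 of CD8 markers beside 36.9 of Klrd1, and WT replicate 2 had 22.5 and 32.7 beside 77.2.

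**Figure D3:**
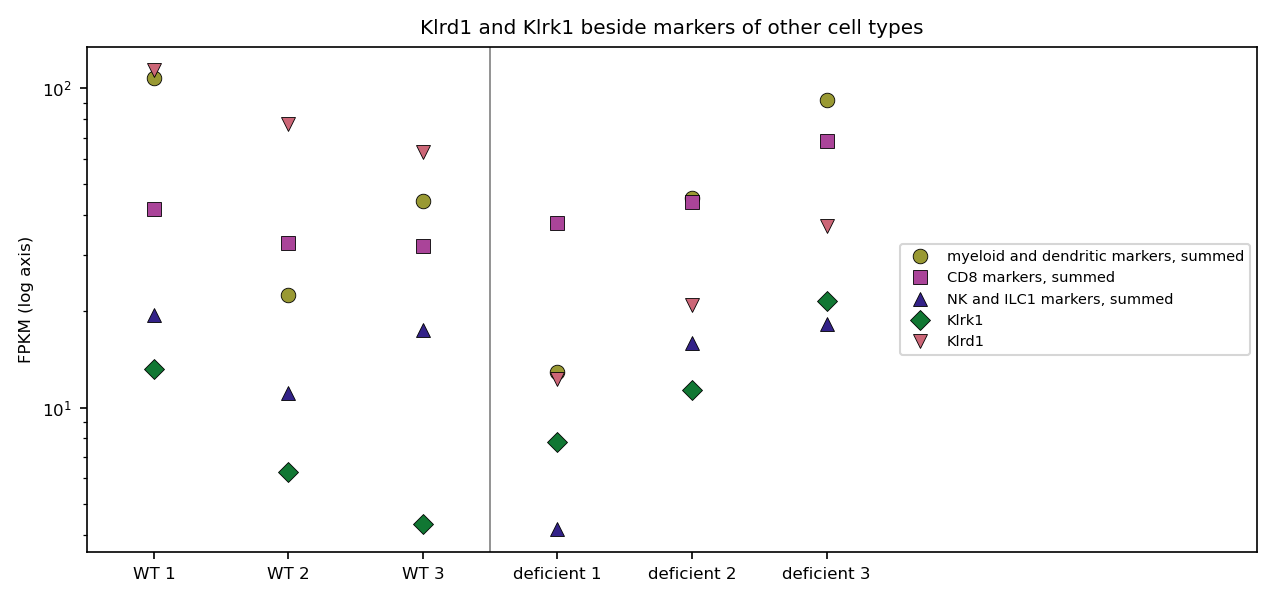
FPKM (log axis) of Klrd1 and Klrk1 and of the summed myeloid, CD8 and NK marker lists in each library. Within each group Klrk1, Klrd1 and the myeloid, CD8 and NK sums are all highest in the same library (WT 1 and deficient 3). The ratio of Klrd1 to Klrk1 is 8.60 to 14.6 in WT and 1.57 to 1.85 in deficient libraries.

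The genes with the most similar profiles were found by the root mean square difference of log2(FPKM + 1), each gene centred on its own mean over the 6 libraries, among 10361 protein-coding genes. Nearest to Klrd1 was Ajuba, a LIM domain protein gene (0.26), followed by Slpi, a protease inhibitor gene (0.41), and Ifi205 (0.41), and 0 genes lay within 0.2. Nearest to H60b were Sh3bgrl2 (0.19), Axl, a receptor tyrosine kinase gene (0.19), and Ifi204 (0.20), the 3 genes within 0.2. Nearest to Klrk1 were Upp1, the uridine phosphorylase gene (0.10), Xlr3a (0.20) and Nek6 (0.23), with 2 within 0.2. Upp1 was at 4.03, 2.04 and 1.03 FPKM in WT and 1.99, 3.73 and 8.08 in deficient aTreg, high in the same libraries as Klrk1.

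For Cd226 and Cd96 the measure was not selective, with 284 and 1644 genes within 0.2. The nearest to Cd226 were Ly86 (0.02), Ncoa7 (0.08) and Srsf5 (0.09), and to Cd96 Hcfc1r1 (0.05), Mex3b (0.05) and Gnpda1 (0.06). These distances describe 6 libraries that share the group difference and the library effects, and carry no test.

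**Figure D4:**
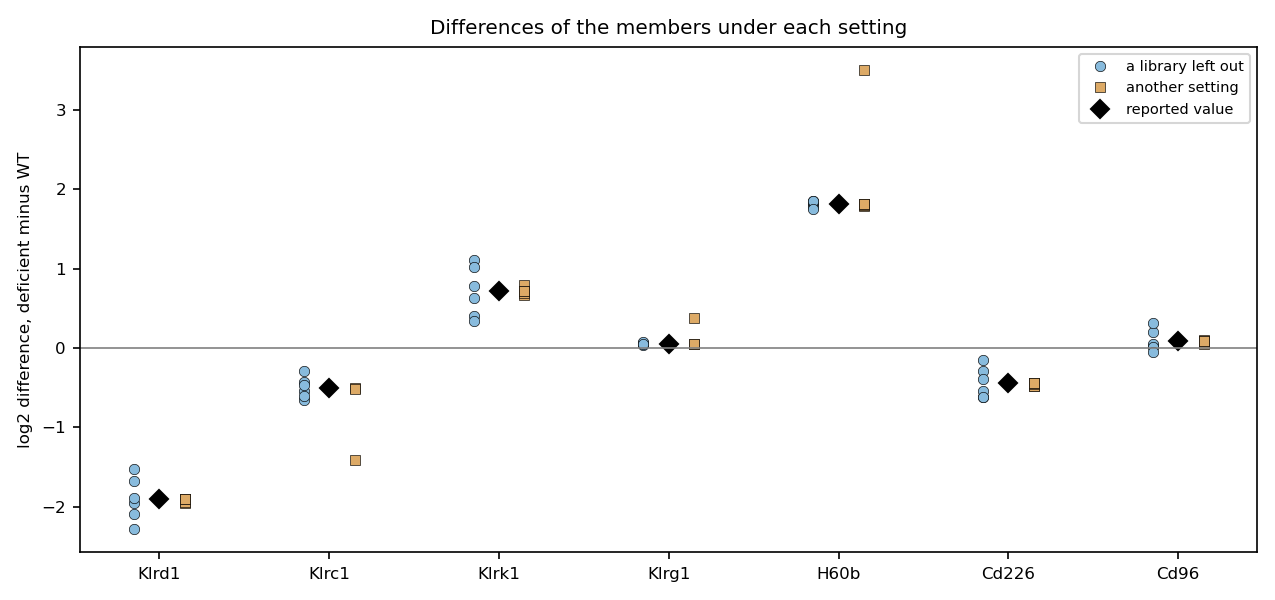
Difference in log2 values, deficient minus WT, of each gene as reported (black), with each library left out (circles) and under the other settings (squares). Klrd1 stays between -2.29 and -1.53 and H60b at or above 1.75, where the square at 3.50 is the pseudocount of 0.1.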

How the data were processed

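RNA of 6 sorted aTreg libraries, 3 per group, was sequenced. The authors deposited FPKM values, 1 column per library. TopHat2, Cufflinks, Cuffdiff and the build GRCm38.p4 are named per the submitters' processing notes; versions, settings, annotation and strand handling were not stated there. Symbols and positions came from GENCODE M21 (GRCm38), which gave 24876 of 25759 identifiers a symbol. Without counts, no count model applied. Depth was estimated from single-transcript genes as the densest low value of FPKM times transcript length, so fragment numbers are approximate.

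The limma test (version 3.58.1, R 4.3.3) compared log2(FPKM + 1) between the groups for the 13413 genes whose mean FPKM reached 1. It used eBayes with a trend and was two-sided, with Benjamini-Hochberg adjustment over those genes at 0.05, and was tested on simulated data. Alternatives varied the pseudocount, filter, scaling, trend, a replicate block and each library left out.

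The members and lists were chosen with earlier results of these data known. Named genes are the members, a fixed set of partners, up to 4 called genes of a list or its 2 most abundant, and the 3 most similar profiles per tested member; others are said to be chosen after their values were seen, or stand for the marker lists. Protein sequences were not used here.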

Additional observations from a re-analysis of the deposited data

How the results depend on the processing

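Klrd1, Klrk1, Cd226 and Cd96 moved by less than the pooled SD of their replicates under each alternative run. With a pseudocount of 0.1, which by construction weights low values more, the log2 difference was 3.50 for H60b, -1.41 for Klrc1 and 0.38 for Klrg1. With a library left out the differences ranged from -2.29 to -1.53 for Klrd1, 0.34 to 1.11 for Klrk1, -0.62 to -0.15 for Cd226, -0.05 to 0.32 for Cd96, -0.66 to -0.29 for Klrc1, 0.041 to 0.076 for Klrg1 and 1.75 to 1.85 for H60b. Klrc1 and Klrg1 had no value under quantile normalization, the stricter filter, the fit with no trend or the block, nor H60b under the stricter filter.

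With a library left out, limma called 10 to 134 genes higher and 4 to 76 lower, 0 to 1 list genes higher and 0 to 2 neighbours of H60b higher. Without WT replicate 1, 2 or 3 the counts over all genes were 37 and 18, 13 and 8, and 10 and 4, and without deficient replicate 1, 2 or 3 they were 134 and 76, 34 and 18, and 15 and 5. With a replicate block 5 genes were higher and 5 lower, with 0 list genes and 0 neighbours of H60b higher, and the adjusted p of Cdh1 was 0.107. Correlations of same-numbered deviations were 0.0103, 0.0645 and 0.0518, and those of differently numbered ones ranged from -0.0935 to 0.0412. All were weak, so whether the replicate numbers pair the libraries stays uncertain. At a mean of at least 5 FPKM 27 genes were lower, and 0 list genes and 1 neighbour were higher, as fewer genes are tested. With quantile normalization 88 genes were higher and 70 lower, against 100 and 43. Without a filter 4 list genes were higher, and of the neighbours of H60b 3 were higher, among them Gm19791 (adjusted p = 0.00503), and 2 lower (Gm26581 and Gm10825, which share most of their sequence). The log2 difference of H2-T23 turned to 0.0021 with quantile normalization, and that of Tigit ranged from -0.58 to 0.11 with a library left out, positive without deficient replicate 1. The cause was not tested. Values of a few fragments (Klrg1, H60b in WT) are limited by depth.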
